A study of Mus musculus with 14 samples.

Results

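The genotype by diet interaction in bone marrow asks whether loss of Pnpla2 from bone marrow adipocytes changed how marrow RNA responded to caloric restriction. It was measured for every gene as the response to diet in BMAd-Pnpla2-/- mice minus the response in BMAd-Pnpla2+/+ mice, each response being the log2 fold change of caloric restriction (CR) against ad libitum feeding (AL). All 14 of the 14 RNAseq samples entered it, and 17671 of 55401 annotated genes had enough reads to be tested. The samples were plugs of marrow from the distal tibia of male mice on a mixed C57BL6/SJL background at 24 weeks of age, and 2 mice were pooled for each. BMAd-Pnpla2+/+ mice gave 4 AL and 4 CR samples, and BMAd-Pnpla2-/- mice gave 3 AL and 3 CR samples. CR was a 30% restriction kept up for 6 weeks.

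In BMAd-Pnpla2-/- mice, an Osterix-driven FLPo recombinase turns a reversed Cre, carried in the Adipoq gene, into its working direction. Floxed exons of Pnpla2 are then removed from cells that have expressed Osterix and express Adipoq. The model has known limits. The Cre cassette lowers adiponectin protein, Cre is weakly expressed, recombination is incomplete in young mice, and a few stromal cells are labelled beside the adipocytes. The controls were littermates with intact Pnpla2. By the study's account they also carried the FLPo and the Cre cassette and lacked only the floxed alleles, so both genotypes share the cassette. Transcripts of Pnpla2 from every other marrow cell remain in the plug. The study also found a shortened Pnpla2 mRNA in tail vertebrae of the knockout and named incomplete deletion as a possible source of intact mRNA. Counts per gene do not tell these apart, so they do not measure the deletion.

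Pnpla2 encodes adipose triglyceride lipase (ATGL), the enzyme that starts lipolysis by removing the first fatty acid from stored triacylglycerol. ABHD5 activates it and G0S2 inhibits it, while hormone-sensitive lipase (Lipe) and monoglyceride lipase (Mgll) complete the breakdown to free fatty acids and glycerol. White adipocytes shrink during energy deficit, whereas marrow adipocytes often expand under CR. The study ascribes this mainly to the regulated kind of the proximal tibia. It describes the constitutive kind, sampled here, as generally resisting change, but also reports more marrow fat throughout the tibia under CR. Marrow adipocytes lie beside bone-forming cells, vessels and developing blood cells, so a plug of marrow holds RNA of all of these. In such bulk samples, fewer cells of a type and less RNA per cell cannot be told apart.

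The libraries held 25282327 to 27475056 read pairs, of which 18898324 to 21665553 were counted on a gene without regard to strand. In 11 libraries 4.30 to 4.62% of gene reads lay on the first strand, against 50.1 to 50.5% in the 3 BMAd-Pnpla2-/- CR libraries. Those 3 libraries were therefore not strand-specific, and library type and the BMAd-Pnpla2-/- CR group cannot be told apart. Only the counts made without strand were compared below, because the deposited matrix mixes both kinds. Mitochondrially encoded genes took 1.87 to 3.26% of counts in BMAd-Pnpla2-/- CR and 1.13 to 2.25% in the other libraries. Genes that define marrow were abundant, with means of 51369.7 counts for S100a8 of neutrophils and 105900 for Cxcl12 of stroma. The 14 samples are separate pools, and p-values measure the spread between such pools.

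No gene passed the interaction test at an adjusted p under 0.05 (edgeR quasi-likelihood test with Benjamini-Hochberg adjustment over 17671 genes, 0% called), and the lowest adjusted p was 0.341. At an unadjusted p under 0.05 there were 1836 genes (10.4%). Of these, 1064 had a positive interaction (6.02% of genes tested), meaning a higher response to CR without Pnpla2, and 772 a negative one (4.37%). At any p, 8849 of the 17671 genes had a positive interaction and 8822 a negative one. limma voom also called 0 genes after adjustment and 1807 before it. DESeq2 called 58 genes, 31 positive and 27 negative, of 1977 at an unadjusted p under 0.05. It left 10621 genes without an adjusted p, so it adjusted over fewer genes than edgeR. Only Bri3 and Pnpla2 among the 58 had an absolute interaction over 1. With library totals alone as scaling, the unadjusted split was 1288 positive to 568 negative, and with size factors of the relative log expression method it was 894 to 945. The balance of directions therefore depended on the scaling. The median standard error of the interaction was 0.29, and the middle 50% of genes lay between 0.18 and 0.49. Without BMAd-Pnpla2+/+ CR replicate 4 the unadjusted count was 2916, and without BMAd-Pnpla2-/- CR replicate 1 it was 1143.

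The interaction followed the GC content of transcripts. Genes were split by GC into 5 bins of like size. In the lowest bin (under 43.9%) the median interaction was 0.24, and 16.5% of genes had a positive interaction at an unadjusted p under 0.05. In the highest bin (over 55.3%) the median was -0.25, and 12.6% had a negative one. All 3 BMAd-Pnpla2-/- CR libraries stood above the mean of the samples in the lowest bin, by 0.17 to 0.27 on the log2 scale. They stood below it in the highest bin, at -0.21 to -0.09. Replicate 2 of BMAd-Pnpla2+/+ CR ran the opposite way, from -0.19 to 0.24. A smooth offset for GC and transcript length in each library brought the medians of the bins to between -0.02 and 0.01. The offset was fitted to the trend in these same counts, so medians near 0 follow from its construction. With that offset 1182 genes (6.7% of 17649) had an unadjusted p under 0.05, 624 positive (3.54%) and 558 negative (3.16%), and 0 passed after adjustment, with a lowest adjusted p of 0.62. Of the genes at an unadjusted p under 0.05, 853 were shared by both fits with the same sign. Values with the offset are given below as GC-adjusted. The part of library preparation in the GC trend was not tested, since the 3 libraries of the other type are 1 group.

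**Figure D1:**
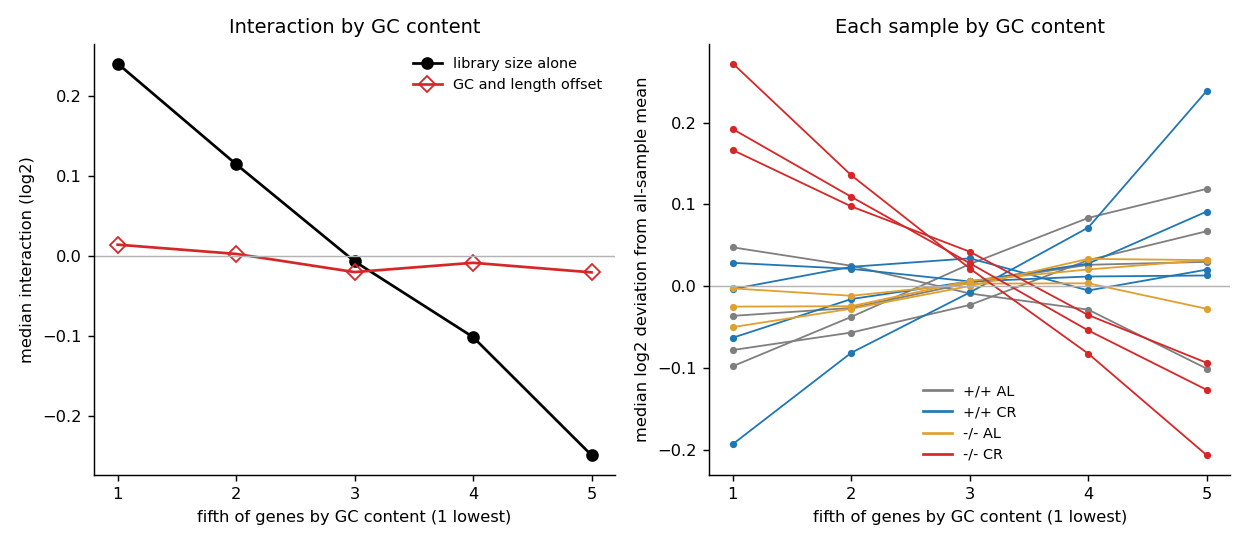
Median interaction (log2) in 5 bins of genes by GC content (1 lowest), with library size alone and with the GC and length offset, and beside it the median log2 deviation of each of the 14 samples from the mean of all samples in each bin, coloured by group. With library size alone the median falls from 0.24 to -0.25, and the 3 BMAd-Pnpla2-/- CR samples run from high to low. With the offset, which was fitted to this trend, every bin lies near 0.

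Each response on its own was large. In BMAd-Pnpla2+/+ marrow 1639 genes changed under CR by more than 1 on the log2 scale and at an adjusted p under 0.05 (9.28%), 1296 higher (7.33%) and 343 lower (1.94%). In BMAd-Pnpla2-/- marrow 624 genes changed (3.53%), 463 higher (2.62%) and 161 lower (0.911%). The groups without Pnpla2 had fewer samples, so the difference of these counts is no test. The 2 counts also moved with single libraries. The first was 1065 without BMAd-Pnpla2+/+ CR replicate 2 and 1062 without CR replicate 3. The second was 167, 184, 305 and 122 without BMAd-Pnpla2-/- AL replicate 1, AL replicate 3, CR replicate 2 and CR replicate 3.

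The 2 responses share no sample. Across the 17671 genes, which are not independent replicates, they had a Pearson correlation of 0.68 and a Spearman correlation of 0.61. The slope of the BMAd-Pnpla2-/- response on the BMAd-Pnpla2+/+ response was 0.63, and the reverse slope was 0.74. Genes picked for a large response in 1 genotype tend to have a smaller one in the other, so the genes called in each genotype are given side by side. The 1296 genes higher under CR in BMAd-Pnpla2+/+ marrow had a median log2 fold change of 1.41 there and 0.97 without Pnpla2, with the same sign in 1276 and a median interaction of -0.49 (GC-adjusted -0.41). The 463 genes higher under CR in BMAd-Pnpla2-/- marrow had a median of 1.54 there and 1.54 in BMAd-Pnpla2+/+ marrow, and a median interaction of 0.09 (GC-adjusted -0.02). Both sets shared 360 genes. The 343 genes lower under CR in BMAd-Pnpla2+/+ marrow had a median of -1.34 there and -0.89 without Pnpla2. The 161 lower in BMAd-Pnpla2-/- marrow had medians of -1.66 there and -1.31 in BMAd-Pnpla2+/+ marrow, and 108 genes were in both sets.

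**Figure D2:**
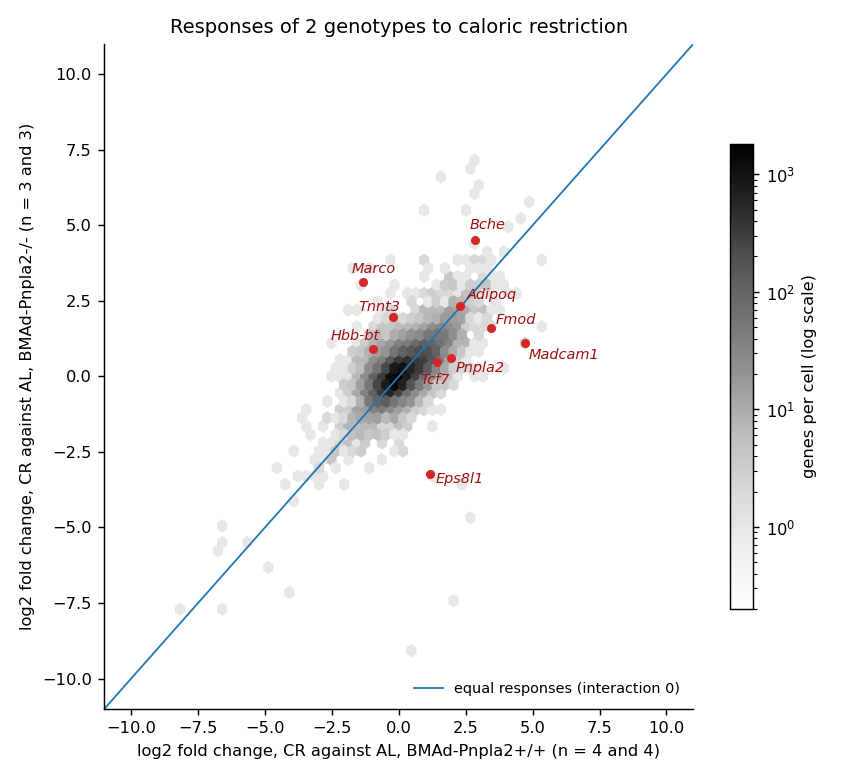
Log2 fold change of CR against AL in BMAd-Pnpla2+/+ marrow (x axis) and BMAd-Pnpla2-/- marrow (y axis) for every tested gene, shaded by the number of genes per cell on a log scale, with the line of equal responses. Most genes lie near the line, Pnpla2, Madcam1, Fmod and Eps8l1 lie below it, and Bche, Marco, Tnnt3 and Hbb-bt lie above it.

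Pnpla2 (ENSMUSG00000025509.15, mm10 chromosome 7, 141455198 to 141460743, forward strand) was read at 301, 174, 199 and 189.5 CPM, the count relative to the scaled library size, in the BMAd-Pnpla2+/+ AL samples. It was at 804, 991, 1015 and 502 CPM in BMAd-Pnpla2+/+ CR. In BMAd-Pnpla2-/- marrow it was at 135, 170.1 and 131 CPM under AL and 177, 219 and 267 CPM under CR. Every BMAd-Pnpla2+/+ CR sample was above every other sample, whereas the CR samples without Pnpla2 stayed within the range of fed controls. Pnpla2 rose by 1.94 on the log2 scale under CR in BMAd-Pnpla2+/+ marrow (adjusted p 5.95e-04), and its response without Pnpla2 was 0.60 (adjusted p 0.143). Its interaction was -1.34 with a standard error of 0.35 (edgeR unadjusted p 0.00183, adjusted p 0.341, DESeq2 adjusted p 0.0283). Leaving out each sample in turn gave -1.54 to -1.20, and the unadjusted p stayed under 0.05 in all 14 fits. The GC-adjusted interaction of Pnpla2 was -1.13.

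Of the 19 enzymes and regulators of lipolysis tested, 14 had a negative interaction and 5 a positive one. At an unadjusted p under 0.05, 3 were negative (4.37% of all genes were) and 0 positive (6.02% of all genes). These counts and the medians that follow include Pnpla2, the deleted gene, so they are not independent of the deletion itself. The median response of the 19 genes to CR was 1.11 with Pnpla2 and 0.26 without it. The median of their interactions was -0.15, against 0.0008 over all genes. It was -0.40 without BMAd-Pnpla2+/+ AL replicate 1 and -0.0048 without BMAd-Pnpla2+/+ CR replicate 3. Beside Pnpla2 the negative members were Mgll, which splits monoacylglycerol, and Abhd6, another monoacylglycerol lipase. Mgll was at 186, 231, 195 and 172 CPM in BMAd-Pnpla2+/+ AL and at 363, 389.8, 406 and 249 CPM in CR. Without Pnpla2 it was at 198, 216 and 212 CPM under AL and 199.6, 257 and 254 CPM under CR. The CR samples of Mgll without Pnpla2 thus overlapped with the fed ones, and those of the controls did not. Its interaction was -0.66 (edgeR unadjusted p 0.00995), and that of Abhd6 was -0.85 (0.0183).

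Lipe, the lipase that acts after ATGL, rose by 1.68 with Pnpla2 and by 1.57 without it, with an interaction of -0.11 (standard error 0.49). Plin1, the main coat protein of adipocyte lipid droplets, rose by 2.11 and 2.17. Abhd5 had an interaction of -0.02. Among 15 perilipins and droplet proteins the median interaction was 0.01, with 1 positive and 2 negative members at an unadjusted p under 0.05 (6.02 and 4.37% of all genes). The median was -0.30 without BMAd-Pnpla2+/+ AL replicate 1 and 0.09 without BMAd-Pnpla2+/+ CR replicate 2. One negative member was Plin2, the coat protein of droplets in most cells (-0.47, unadjusted p 0.0371). Another was Bscl2, which encodes seipin, a protein of droplet formation at the endoplasmic reticulum. Bscl2 was at 91.5, 68.2, 86.7 and 86.6 CPM in BMAd-Pnpla2+/+ AL, 136, 138, 144 and 110.2 in CR, 88.1, 95.9 and 87.2 in BMAd-Pnpla2-/- AL and 77.7, 90.2 and 90.6 in CR. Every restricted control sample was above all fed ones, but fed and restricted levels overlapped without Pnpla2. The interaction of Bscl2 was -0.74 with a standard error of 0.16 (edgeR unadjusted p 5.05e-04, adjusted p 0.341).

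**Figure D3:**
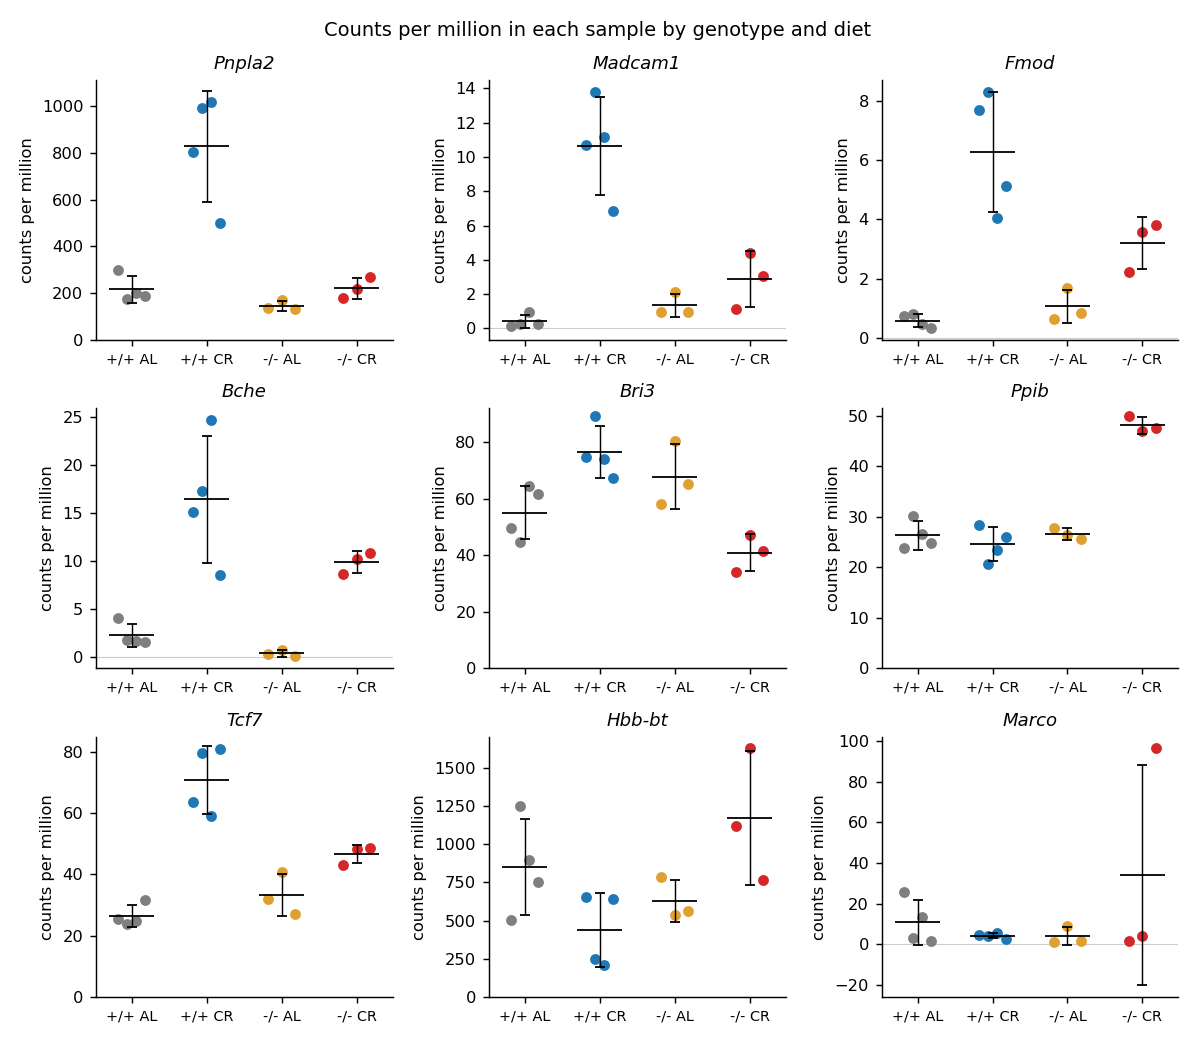
CPM (linear axes) of 9 genes, with 1 point for each of the 14 samples, a horizontal line at the group mean and bars of ± SD. Pnpla2, Madcam1, Fmod and Tcf7 are highest in BMAd-Pnpla2+/+ CR, Bche is lowest in BMAd-Pnpla2-/- AL, Ppib stands high and Bri3 low in all 3 BMAd-Pnpla2-/- CR samples, and Marco is high in 1 of these.

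Of 14 adipokines 10 had a negative interaction, with a median response of 1.85 with Pnpla2 and 1.12 without it and a median interaction of -0.28 (GC-adjusted -0.19). Adipoq, which encodes adiponectin and carries the Cre cassette in this model, was at 28.6, 23.5, 13.8 and 17.4 CPM in BMAd-Pnpla2+/+ AL and 65.8, 224, 82.7 and 31.0 CPM in CR. Without Pnpla2 it was at 8.43, 16.4 and 7.51 CPM under AL and 79.6, 32.6 and 49.0 CPM under CR. The restricted samples lay above the fed ones in each genotype. Adipoq rose by 2.27 (adjusted p 0.00973) and 2.31 (adjusted p 0.0306), and its interaction was 0.04 with a standard error of 0.76. Leptin (Lep) rose by 3.20 and 4.04, with an interaction of 0.84 (unadjusted p 0.304). Resistin (Retn) rose by 3.53 and 2.93, and adipsin (Cfd) by 1.77 and 2.23. The only adipokine at an unadjusted p under 0.05 was Itln1, which was negative (4.37% of all genes were) and had no reads in several libraries.

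Transcription factors of adipogenesis had mostly negative interactions, 17 of 19, with a median of -0.48 (GC-adjusted -0.34). However, none of the 19 reached an unadjusted p of 0.05 (10.4% of all genes did). Pparg, the central regulator of adipocyte differentiation, rose by 1.18 in BMAd-Pnpla2+/+ marrow (adjusted p 0.0074) and was at 0.57 without Pnpla2 (adjusted p 0.22). Its interaction was -0.62 (standard error 0.38). Cebpa, its partner, gave 1.19, 0.52 and -0.68 in the same order, and its GC-adjusted interaction was -0.31.

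Among the lipid pathways, fatty acid synthesis had a median interaction of -0.25 over 20 genes (GC-adjusted -0.12). At an unadjusted p under 0.05 it had 1 negative member (4.37% of all genes), the citrate carrier Slc25a1 (-0.79, 0.00865). Fasn, the fatty acid synthase, rose by 2.36 in BMAd-Pnpla2+/+ marrow and was at 1.02 without Pnpla2 (adjusted p 0.19). Its interaction was -1.34 (standard error 0.65, unadjusted p 0.0595). Uptake of fatty acids had a median of -0.44 over 16 genes, with 2 members in each direction at an unadjusted p under 0.05 (6.02% of all genes were positive and 4.37% negative). Acsl1, which activates long-chain fatty acids in adipocytes, rose in both genotypes, by 1.08 and 0.58, with an interaction of -0.50 (unadjusted p 0.00987). Lmf1, which matures lipoprotein lipase, had -0.47. Acsl4 (0.56) and Acsl5 (0.53) were the positive members.

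Triglyceride synthesis had 3 negative and 1 positive member among 17 at an unadjusted p under 0.05 (4.37 and 6.02% of all genes), and a median of -0.25 that came to -0.07 with GC adjustment. The negative members included Agpat2 and Agpat1, which add the second fatty acid to the glycerol backbone. Agpat2 was at 126, 97.1, 123 and 102 CPM in BMAd-Pnpla2+/+ AL, 221, 161, 191 and 139.8 in CR, 104, 119.7 and 111 in BMAd-Pnpla2-/- AL and 108, 93.6 and 109 in CR. Every restricted control sample was above all other samples. The interaction of Agpat2 was -0.77 (standard error 0.20, unadjusted p 0.00201). That of Agpat1 was -0.54 and came to -0.29 with GC adjustment. Fatty acid oxidation had a median of -0.11 over 27 genes with 1 negative member past an unadjusted p of 0.05 (4.37% of all genes).

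Cholesterol synthesis had 4 positive members of 26 at an unadjusted p under 0.05 (6.02% of all genes) and 0 negative ones, with a median of -0.06 (GC-adjusted 0.10). With GC adjustment 1 of the 26 was positive at that p (3.54% of all genes). They included Fdps, an enzyme of isoprenoid synthesis, at 0.95, which had few reads. Stard4, a cholesterol carrier, had an interaction of 0.60. Stard4 fell in BMAd-Pnpla2+/+ marrow, by 0.59 on the log2 scale, and its response was 0.00 without Pnpla2.

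Of 81 nuclear genes of oxidative phosphorylation, 51 had positive and 30 negative interactions with a median of 0.09. At an unadjusted p under 0.05 there were 12 positive and 4 negative members (6.02 and 4.37% of all genes). With GC adjustment there were 8 and 4 (3.54 and 3.16% of all genes). The median was -0.02 without BMAd-Pnpla2-/- AL replicate 2. Uqcrh, a subunit of complex III, was at 51.9, 64.6, 56.6 and 60.6 CPM in BMAd-Pnpla2+/+ AL, 44.3, 37.9, 34.8 and 38.9 in CR, 46.5, 40.2 and 43.1 in BMAd-Pnpla2-/- AL and 55.5, 52.7 and 42.6 in CR. Restricted control samples were below all fed control samples, and without Pnpla2 the groups overlapped with the restricted samples on the higher side. The interaction of Uqcrh was 0.80 (standard error 0.16, unadjusted p 2.43e-04, GC-adjusted 0.59). The complex I subunits Ndufb10 (0.56) and Ndufa6 (-0.50) went opposite ways. Genes of the mitochondrial genome had a median of 0.23 over 11, which became -0.18 with GC adjustment. Ribosomal proteins had 0.05 and -0.05 over 84 genes, with 7 positive members, Rps28 among them (0.52), and 1 negative (6.02 and 4.37% of all genes).

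Of 17 glucocorticoid-responsive genes, 12 rose at an adjusted p under 0.05 in each genotype (15.1% of all genes did in BMAd-Pnpla2+/+ and 6.04% in BMAd-Pnpla2-/- marrow), and the median interaction was -0.07. Fkbp5, a chaperone induced by glucocorticoids, rose by 1.54 and 1.37, and the clock gene Per1 by 1.51 and 1.38. Of 19 circadian genes 15 had a negative interaction, with a median of -0.21 (GC-adjusted -0.17), and 0 reached an unadjusted p of 0.05 (10.4% of all genes did). At an adjusted p under 0.05, 14 of them rose with Pnpla2 and 9 without it (15.1 and 6.04% of all genes). The clock repressor Nr1d1 had an interaction of -1.02 (standard error 0.57), and the clock output factor Dbp -0.79 (standard error 0.46). The median of circadian genes was -0.46 without BMAd-Pnpla2-/- AL replicate 1 and -0.08 without AL replicate 2. Median interactions were -0.03 for glycolysis, -0.17 for insulin signalling, -0.01 for monocarboxylate transporters, -0.07 for nutrient stress and autophagy and -0.07 for the IGF system.

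**Figure D4:**
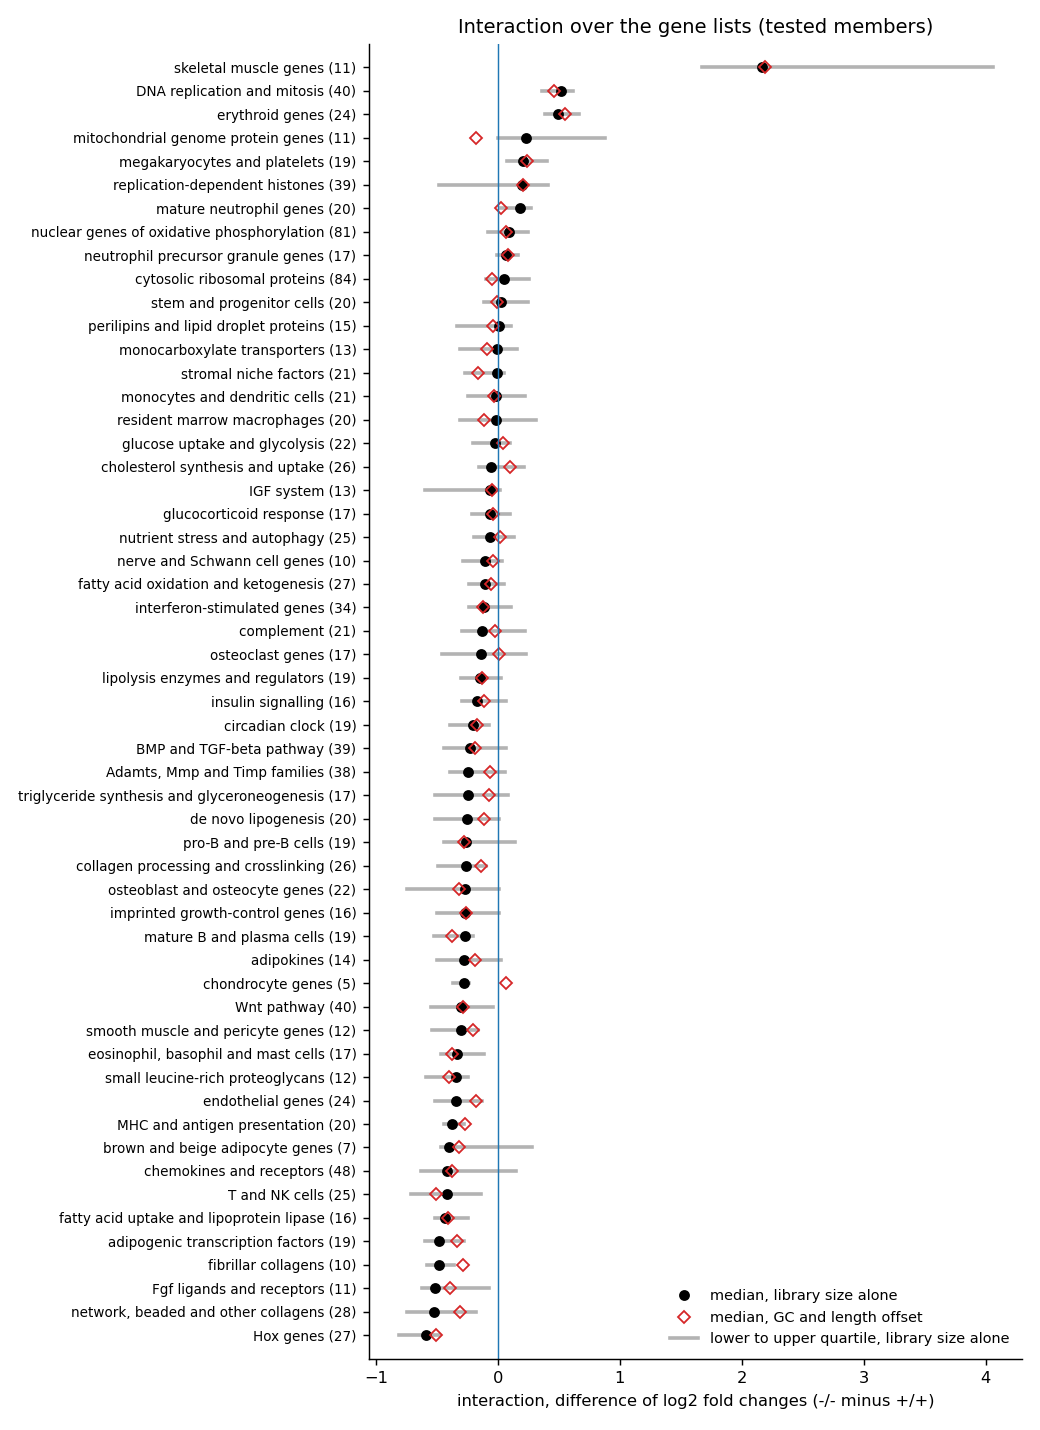
Median interaction (log2) of each of 55 gene lists with library size alone (filled circles, with grey lines from the lower to the upper quartile) and with the GC and length offset (open diamonds), and the number of tested members in brackets. Skeletal muscle genes stand far to the right at 2.16, followed by DNA replication and mitosis and erythroid genes. Hox genes, collagens, Fgf genes, adipogenic transcription factors, fatty acid uptake, T and NK cell genes and chemokines stand to the left.

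Where the mean was 50 counts or more, the 10 highest interactions at an unadjusted p under 0.05 ran from 4.46 to 1.49, and the 10 lowest from -4.40 to -1.41. Many of either set are immunoglobulin segments (Igkv8-30, Ighv12-3, Ighv1-47, Iglc3, Igkv4-74) or predicted genes and copies (Rps26-ps1, Gm37527, Gm10925, Gm21887, Gm16378, Gm6900, Mir703). Their reads can be shared with near-identical sequences or come from single B cell clones, so their values are uncertain. Those left were, on the negative side, Eps8l1, Madcam1 and Fmod, and on the positive side Marco, Tnnt3, Hbb-bt, Bche and A730089K16Rik. Exons of the other strand overlap 76.0% of A730089K16Rik, which makes its value uncertain too.

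Madcam1 (mm10 chromosome 10, 79664559 to 79668537) encodes an adhesion molecule of vessels that binds lymphocytes. It was at 0.145, 0.264, 0.978 and 0.237 CPM in BMAd-Pnpla2+/+ AL and 10.7, 13.8, 11.2 and 6.86 CPM in CR. Without Pnpla2 it was at 0.979, 2.11 and 0.952 CPM under AL and 1.16, 4.42 and 3.04 CPM under CR. All restricted control samples were above every other sample, and the fed samples without Pnpla2 were above 3 of the 4 fed control samples. Madcam1 rose by 4.71 in BMAd-Pnpla2+/+ marrow (adjusted p 5.32e-04), and its response was 1.09 without Pnpla2 (adjusted p 0.21). The interaction of Madcam1 was -3.62 with a standard error of 0.78 (edgeR unadjusted p 4.14e-04, GC-adjusted -3.40), and it ranged from -4.50 to -3.19 when samples were left out in turn.

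Fmod encodes fibromodulin, a small proteoglycan that binds collagen fibrils. It was at 0.724, 0.791, 0.463 and 0.332 CPM in BMAd-Pnpla2+/+ AL, 7.68, 8.29, 4.05 and 5.12 in CR, 0.653, 1.68 and 0.846 in BMAd-Pnpla2-/- AL and 2.21, 3.58 and 3.82 in CR. In both genotypes the restricted samples lay above the fed ones, and those of the controls lay highest. Fmod rose by 3.43 and by 1.59, and its interaction was -1.85 (standard error 0.55, unadjusted p 0.00461). Eps8l1, a relative of the EGF receptor substrate Eps8, was at 1.35, 2.16, 1.03 and 4.17 CPM in BMAd-Pnpla2+/+ AL, 1.71, 3.69, 5.60 and 8.76 in CR, 0.218, 2.58 and 6.98 in BMAd-Pnpla2-/- AL and 0.369, 0.368 and 0.294 in CR. Its spread among fed samples without Pnpla2 was wide. Eps8l1 had the lowest interaction at -4.40 (standard error 1.21, unadjusted p 0.00301).

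Bche encodes butyrylcholinesterase, an enzyme that hydrolyses choline esters. It was at 4.06, 1.85, 1.65 and 1.56 CPM in BMAd-Pnpla2+/+ AL, 15.1, 17.3, 24.6 and 8.55 in CR, 0.381, 0.790 and 0.106 in BMAd-Pnpla2-/- AL and 8.65, 10.3 and 10.8 in CR. The fed samples without Pnpla2 were the lowest of all, and the restricted samples of both genotypes overlapped. Bche rose by 2.84 (adjusted p 0.00136) and 4.52 (adjusted p 0.00323), and its interaction was 1.68 (standard error 0.69, unadjusted p 0.0297). With GC adjustment it was 1.43 (unadjusted p 0.0619).

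Marco, a scavenger receptor of macrophages, owed its first place to 1 sample. It was at 25.5, 2.90, 13.4 and 1.47 CPM in BMAd-Pnpla2+/+ AL, 4.64, 4.28, 5.34 and 2.69 in CR, 1.09, 9.0 and 1.69 in BMAd-Pnpla2-/- AL and 1.37, 4.21 and 96.4 in CR. The interaction of Marco was 4.46 (unadjusted p 0.0247), and 0.85 (unadjusted p 0.528) without BMAd-Pnpla2-/- CR replicate 3. Hbb-bt, a beta globin whose reads are close to those of Hbb-bs, was at 504, 1249, 898 and 752 CPM in BMAd-Pnpla2+/+ AL, 654, 247, 206 and 639 in CR, 787, 536 and 565 in BMAd-Pnpla2-/- AL and 1117, 1633 and 765 in CR. Fed and restricted samples of Hbb-bt overlapped in each genotype. Its interaction was 1.86 (standard error 0.60, unadjusted p 0.00814).

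The smallest p-values belonged to small, tight differences. Ppib, a peptidyl-prolyl isomerase of the endoplasmic reticulum, was at 23.7, 30.1, 26.6 and 24.8 CPM in BMAd-Pnpla2+/+ AL, 28.3, 20.6, 23.4 and 26.01 in CR, 27.8, 26.4 and 25.5 in BMAd-Pnpla2-/- AL and 49.99, 46.9 and 47.5 in CR. All 3 BMAd-Pnpla2-/- CR samples were above the other 11. The interaction of Ppib was 0.95 (standard error 0.16, unadjusted p 4.49e-05). However, 24.96% of its exonic length lies over an exon of the other strand, 16.3% of its reads in the strand-specific libraries were on the first strand, and its interaction was -1.09 in the deposited matrix. Its direction is therefore uncertain.

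Bri3, a small membrane protein of lysosomes, was at 49.5, 44.7, 64.3 and 61.6 CPM in BMAd-Pnpla2+/+ AL, 74.9, 89.2, 73.9 and 67.4 in CR, 58.1, 80.3 and 65.0 in BMAd-Pnpla2-/- AL and 34.2, 47.1 and 41.5 in CR. It was above all fed control samples under CR in the controls and below all fed samples of its genotype under CR without Pnpla2. Bri3 rose by 0.47 (adjusted p 0.0306) in BMAd-Pnpla2+/+ marrow and fell by 0.73 on the log2 scale (adjusted p 0.0185) in BMAd-Pnpla2-/- marrow. The interaction of Bri3 was -1.20 (standard error 0.22, unadjusted p 9.57e-05, GC-adjusted -1.06, DESeq2 adjusted p 0.00113).

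The other genes with the smallest p were Atad1 (0.64, a mitochondrial protein extractor), Pafah1b2 (0.65), Rlim (0.63, a ubiquitin ligase) and Uba6 (0.68, a ubiquitin-activating enzyme) on the positive side. On the negative side they were Hcfc1r1 (-0.67), Nabp2 (-0.65, a single-stranded DNA binder), Gpr137 (-0.64) and Capns1 (-0.54, the small calpain subunit). Exons of the other strand overlap 29.96% of Hcfc1r1 and 15.4% of Gpr137. In the strand-specific libraries 6.37 and 7.89% of their reads were on the first strand, which makes their values less certain. Atad1, Pafah1b2, Rlim and Uba6 had GC contents of 39.1, 43.7, 40.9 and 37.4%. Hcfc1r1, Nabp2, Gpr137 and Capns1 had 58.9, 55.4, 59.2 and 57.3%. The positive genes were thus all from the low end and the negative ones from the high end of GC content, and the GC-adjusted interaction of Atad1 was 0.38.

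Among the blood lineages, the interactions of T and NK cell genes lay mostly below 0. Of 25 tested, 9 had a negative interaction at an unadjusted p under 0.05 (4.37% of all genes did) and 0 a positive one, and 20 were negative in all. Their median response was 0.62 in BMAd-Pnpla2+/+ and 0.10 in BMAd-Pnpla2-/- marrow, with a median interaction of -0.42. GC adjustment took the median to -0.51 with 10 negative members at an unadjusted p under 0.05 (3.16% of all genes with that offset). Leaving out samples, without the offset, gave medians of -0.58 to -0.29. The summed level of the 25 genes was 346 to 441 CPM in BMAd-Pnpla2+/+ AL, 533 to 611 in CR, 436 to 499 in BMAd-Pnpla2-/- AL and 438 to 534 in CR. The fed and restricted controls did not overlap, whereas the fed and restricted samples without Pnpla2 did.

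Tcf7, a transcription factor of T cells and their precursors, was at 25.5, 23.7, 24.9 and 31.6 CPM in BMAd-Pnpla2+/+ AL, 63.7, 79.8, 59.1 and 81.1 in CR, 32.1, 40.7 and 27.1 in BMAd-Pnpla2-/- AL and 43.2, 48.2 and 48.6 in CR. Restricted samples were above fed ones in both genotypes, and the restricted controls stood highest. Tcf7 rose by 1.42 in BMAd-Pnpla2+/+ marrow (adjusted p 1.78e-04), and its response without Pnpla2 was 0.49 (adjusted p 0.0675). Its interaction was -0.94 (standard error 0.22, unadjusted p 6.96e-04). Eomes, a factor of cytotoxic cells, was at 3.38, 3.80, 6.38 and 7.16 CPM in BMAd-Pnpla2+/+ AL, 7.96, 6.02, 5.38 and 7.39 in CR, 6.91, 8.37 and 6.82 in BMAd-Pnpla2-/- AL and 4.43, 4.63 and 3.58 in CR. Only without Pnpla2 did the fed and restricted levels of Eomes not overlap. The interaction of Eomes was -1.17 (unadjusted p 0.00532).

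Il2rb, a receptor chain for interleukins 2 and 15, was at 56.9, 52.0, 59.6 and 66.4 CPM in BMAd-Pnpla2+/+ AL, 89.5, 101, 93.4 and 86.9 in CR, 74.7, 87.3 and 61.2 in BMAd-Pnpla2-/- AL and 56.9, 81.5 and 75.1 in CR. It rose by 0.66 in BMAd-Pnpla2+/+ marrow (adjusted p 0.00461) and its response was -0.06 in BMAd-Pnpla2-/- marrow, where fed and restricted samples overlapped. The interactions of the other negative members were -1.003 for Tbx21, a factor of type 1 responses, -0.94 for the chemokine Ccl5 and -0.71 for the T cell receptor gene Trac. Those of the receptor genes Cd247, Cd3g and Trbc1 were -0.66, -0.54 and -0.48, and exons of the other strand overlap 56.4% of Cd247. Cd3e, another chain of the receptor complex, rose in both genotypes, by 1.13 and 0.81. Gzma, a protease of cytotoxic granules, had a positive interaction of 0.56.

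Erythroid genes went the other way, with 23 of 24 interactions positive and a median of 0.49 (GC-adjusted 0.55). One of them, Hbb-bt, had an unadjusted p under 0.05 (6.02% of all genes were positive at that p). Their summed level was 21604 to 41275 CPM in BMAd-Pnpla2+/+ AL and 11954 to 57106 in CR, so the restricted controls spanned more than the whole range of the fed ones. Without Pnpla2 it was 43048 to 56531 under AL and 34124 to 57468 under CR. Haemoglobin genes took 0.964 and 0.979% of counts in replicates 2 and 3 of BMAd-Pnpla2+/+ CR, and 2.97 and 4.47% in replicates 1 and 4. Without BMAd-Pnpla2+/+ CR replicate 4 the median interaction of erythroid genes was 1.04, and without replicate 3 it was 0.25. Tfrc, the transferrin receptor, had 1.16 (unadjusted p 0.059) and Klf1, an erythroid factor, 0.61.

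The 40 genes of DNA replication and mitosis all had a positive interaction, with a median of 0.52 (GC-adjusted 0.46). However, none of these 40 reached an unadjusted p of 0.05 (10.4% of all genes did). In BMAd-Pnpla2+/+ marrow 22 of them fell under CR at an adjusted p under 0.05 (10.9% of all genes did), and 0 did without Pnpla2 (5.57% of all genes). The median response was -0.80 in the first and -0.28 in the second. The summed level was 7068 to 10523 CPM in BMAd-Pnpla2+/+ AL, 2667 to 7264 in CR, 6346 to 10072 in BMAd-Pnpla2-/- AL and 4924 to 7489 in CR. The restricted groups overlapped. Mki67, which marks cycling cells, was at 1702, 2800.3, 1865 and 1582 CPM in BMAd-Pnpla2+/+ AL, 1418, 809.9, 531 and 1882 in CR, 2520.2, 1501 and 2224 in BMAd-Pnpla2-/- AL and 1608, 1401 and 1025 in CR. Its interaction was 0.15 (unadjusted p 0.781). Without BMAd-Pnpla2+/+ CR replicate 4 the median of the list was 0.80, and without BMAd-Pnpla2-/- AL replicate 2 it was 0.31.

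**Figure D5:**
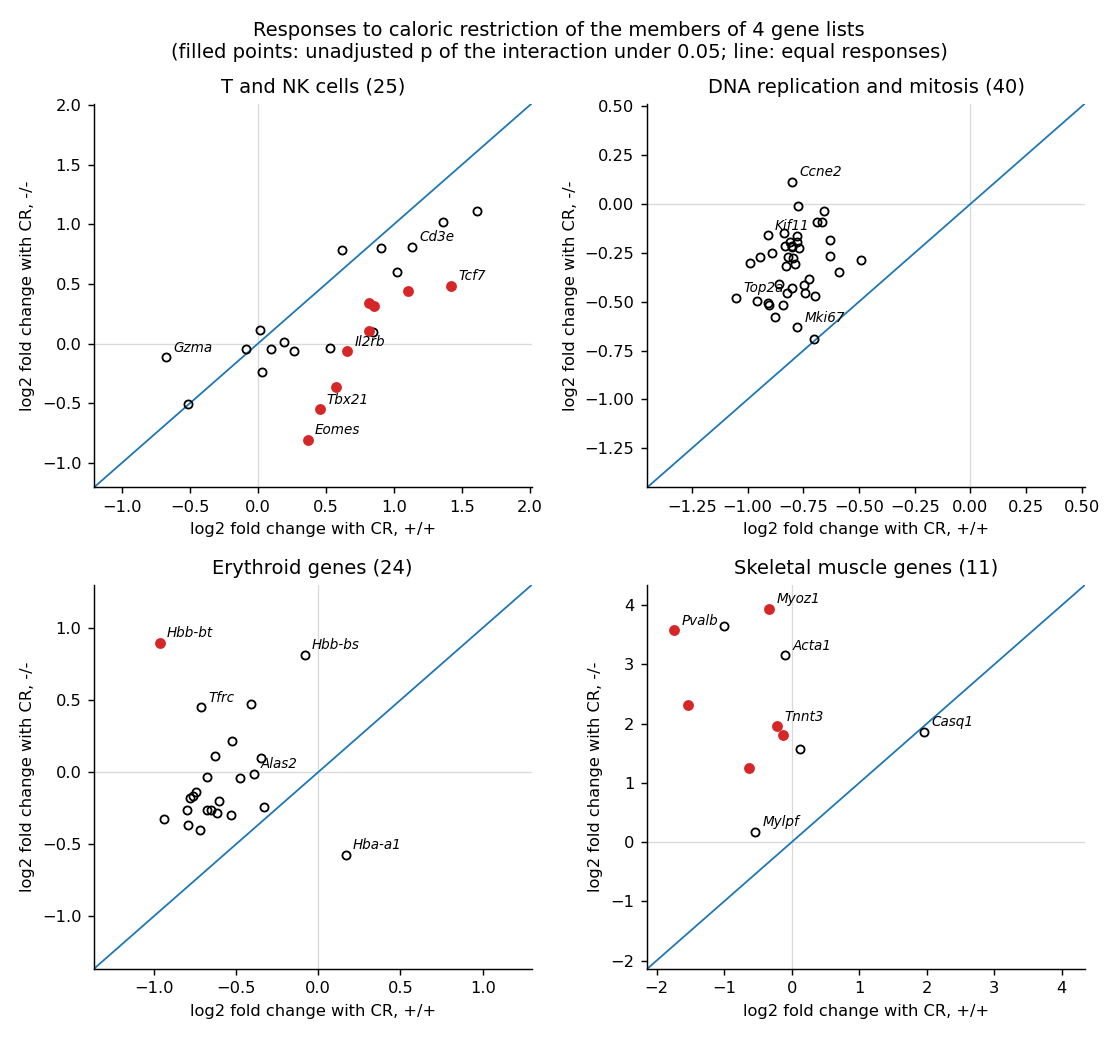
Log2 fold change of CR against AL in BMAd-Pnpla2+/+ (x axis) and BMAd-Pnpla2-/- marrow (y axis) for each tested member of 4 gene lists, with the line of equal responses and filled points for an unadjusted p of the interaction under 0.05. All 40 genes of DNA replication and mitosis lie above the line with no filled point, 9 T and NK cell genes are filled below it, and 6 skeletal muscle genes are filled above it.

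The median response of B cell precursor genes to CR was -0.76 with Pnpla2 and -1.16 without it. Their summed level was 705 to 2205 CPM in BMAd-Pnpla2+/+ AL and 855 to 995 in CR, so fed and restricted controls overlapped. Without Pnpla2 it was 1392 to 1612 CPM under AL and 557 to 923 under CR, which did not overlap. Of 19 pro-B and pre-B genes, 9 were lower in each genotype by the criteria of the single responses (1.94% of all genes with Pnpla2 and 0.911% without it), and the median interaction was -0.26. Vpreb1, a part of the surrogate light chain, fell by 5.51 in BMAd-Pnpla2+/+ marrow and fell by 5.46 without Pnpla2, on the log2 scale. Rag1, which cuts antigen receptor genes, fell by 6.83 and fell by 5.91. The interactions of Vpreb1 and Rag1 were 0.05 (standard error 0.56) and 0.91 (standard error 0.93). Mature B and plasma cell genes were negative in 18 of 19, with a median of -0.27.

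Mature neutrophil genes had a median of 0.18, which was 0.03 with GC adjustment and -0.07 without BMAd-Pnpla2-/- CR replicate 1. Neutrophil precursor granule genes had 0.06. S100a8, a subunit of calprotectin, fell by 0.96 in BMAd-Pnpla2+/+ marrow, and its interaction was 0.87 (unadjusted p 0.0255, GC-adjusted 0.54). Monocyte and dendritic cell genes had a median of -0.01, resident macrophage genes -0.02, stem and progenitor genes 0.03, and eosinophil, basophil and mast cell genes -0.34 (GC-adjusted -0.38). The last was -0.01 without BMAd-Pnpla2+/+ CR replicate 4. Ccr2, the receptor that releases monocytes from marrow, was at 180.1, 211, 149 and 133 CPM in BMAd-Pnpla2+/+ AL, 76.6, 91.3, 107 and 89.7 in CR, 144, 139 and 154 in BMAd-Pnpla2-/- AL and 202, 142 and 117 in CR. It fell below every fed sample in the controls alone, with an interaction of 0.96 (standard error 0.26, unadjusted p 0.00252, GC-adjusted 0.71). Cd68, a lysosomal protein of macrophages, had -0.80. Megakaryocyte genes were positive in 17 of 19, with a median of 0.20, and -0.0021 without BMAd-Pnpla2-/- AL replicate 2.

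All 10 fibrillar collagen genes were negative, with a median of -0.49 (GC-adjusted -0.28), and 0 reached an unadjusted p of 0.05 (10.4% of all genes did). Under CR, 5 of them rose by the same criteria in BMAd-Pnpla2+/+ marrow and 0 did without Pnpla2 (7.33 and 2.62% of all genes). Col1a1, the main collagen of bone, rose by 1.92 (adjusted p 0.035) and was at 1.14 without Pnpla2 (adjusted p 0.29), with an interaction of -0.77 and a standard error of 0.90. Of 28 network and other collagens 25 were negative, with a median of -0.52 (GC-adjusted -0.31). In BMAd-Pnpla2+/+ marrow 12 of them rose, and 1 without Pnpla2 (7.33 and 2.62% of all genes). Without BMAd-Pnpla2+/+ CR replicate 2 the median of fibrillar collagens was -0.22 and that of the others -0.12. The summed level of the 10 fibrillar collagen genes was 721 to 1900 CPM in BMAd-Pnpla2+/+ AL and 1462 to 5881 in CR. Without Pnpla2 it was 815 to 1644 CPM under AL and 1981 to 2741 under CR, the latter within the range of restricted controls. These genes were read in the same pools and are not independent replicates.

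Osteoblast and osteocyte genes had a median of -0.27 over 22, with 10 higher under CR in BMAd-Pnpla2+/+ marrow and 1 without Pnpla2 (7.33 and 2.62% of all genes). Their median was -0.60 without BMAd-Pnpla2-/- AL replicate 1, -0.05 without AL replicate 2 and -0.08 with the replicate number as a block. Alpl, the alkaline phosphatase of mineralising cells, rose by 1.44 (adjusted p 0.0112) and was at 0.38 without Pnpla2, with an interaction of -1.06 (unadjusted p 0.0575). Sp7, which encodes Osterix, rose by 1.19 in the controls and had -0.77 (standard error 0.46). Osteoclast genes had a median of -0.14, which was 0.01 with GC adjustment and 0.33 without BMAd-Pnpla2+/+ CR replicate 2. Collagen processing genes had -0.27 (GC-adjusted -0.14), small leucine-rich proteoglycans -0.34 (-0.41) and the Adamts, Mmp and Timp families -0.24 (-0.07). Adamtsl4, a protein of microfibrils, had -0.80 (unadjusted p 0.00913, GC-adjusted -0.49).

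Endothelial genes were negative in 21 of 24, with a median of -0.34 (GC-adjusted -0.18) and 2 negative members at an unadjusted p under 0.05 (4.37% of all genes). These were Madcam1 and Eng, a co-receptor for TGF-beta ligands (-0.78, 0.0122). Plvap, of fenestrated vessels, rose by 1.10 in BMAd-Pnpla2+/+ marrow and had -0.85 (unadjusted p 0.0586). Stromal niche factors had a median of -0.01 (GC-adjusted -0.16), which ran from -0.22 without BMAd-Pnpla2-/- AL replicate 1 to 0.07 without BMAd-Pnpla2+/+ CR replicate 2. Kitl, the stem cell factor of the niche, rose by 0.92 and 1.03 with an interaction of 0.11. Cxcl12, the chemokine that holds blood stem cells, had -0.27 (standard error 0.33). Smooth muscle and pericyte genes had a median of -0.30, brown adipocyte genes -0.40 (0.02 without BMAd-Pnpla2-/- AL replicate 2), nerve and Schwann cell genes -0.10 and chondrocyte genes -0.28 (GC-adjusted 0.07, 5 genes).

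Hox genes, which keep the positional identity of stromal cells and act in blood progenitors, were negative in 25 of 27 and had a median of -0.59. It stayed between -0.76 and -0.46 when samples were left out and was -0.51 with GC adjustment. At an unadjusted p under 0.05, 2 were negative (4.37% of all genes), Hoxb3 (-1.19) and Hoxa6 (-1.19), and exons of the other strand overlap 52.9% of Hoxb3. Hoxa11 and Hoxa13, which pattern the distal limb, rose in BMAd-Pnpla2+/+ marrow by 1.52 and 1.82, and their interactions were -0.78 and -0.51. Their standard errors were 0.55 and 0.57. The list held 39 Hox genes, and the 27 tested passed a low-count filter that high counts in 1 group can meet. Members high in BMAd-Pnpla2+/+ CR alone could thus have entered, so the count of negative ones is no test.

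Medians were -0.30 for the Wnt pathway over 40 genes, of which 16 rose by these criteria with Pnpla2 and 6 without it (7.33 and 2.62% of all genes), -0.23 for the BMP and TGF-beta pathway and -0.52 for 11 Fgf genes. Without BMAd-Pnpla2-/- AL replicate 2 the Wnt median was -0.01 and the Fgf median -0.21. Before the low-count filter the lists held 54 Wnt and 29 Fgf genes, so members high in 1 group alone could have entered. Wnt11 rose by 2.93 in the controls from few reads and had -1.50 (unadjusted p 0.0647). Inhba, which encodes an activin chain, had a positive interaction of 0.85 (unadjusted p 0.0313). Chemokines and their receptors had a median of -0.42 over 48 genes, with 4 negative and 1 positive member at an unadjusted p under 0.05 (4.37 and 6.02% of all genes). Cxcl10, which attracts T cells and is induced by interferon, had -1.34 (0.0295), and its receptor Cxcr3 -0.48 (0.0285). Complement had a median of -0.13 (GC-adjusted -0.02). Interferon-stimulated genes had -0.11 with 2 of 34 negative at an unadjusted p under 0.05 (4.37% of all genes), one of them Gbp2 (-0.96). MHC and antigen presentation genes were negative in 18 of 20, with a median of -0.38, and Cd74, the invariant chain, had -0.73 (unadjusted p 0.0526). Imprinted growth genes had -0.27, and 0.04 without BMAd-Pnpla2-/- AL replicate 2. Replication-dependent histones, whose copies share reads, had 0.20 over 39 genes.

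Skeletal muscle genes had the highest median of any list, 2.16, with 10 of 11 tested members positive and 6 past an unadjusted p of 0.05 (6.02% of all genes). The list held 18 genes, and the 11 tested passed a low-count filter that high counts in 1 group can meet. Members high in BMAd-Pnpla2-/- CR alone could thus have entered, so these counts are no test. Muscle is not a tissue of the marrow. Their summed level was 12.6 to 39.3 CPM in BMAd-Pnpla2+/+ AL, 12.1 to 23.1 in CR, 17.1 to 20.5 in BMAd-Pnpla2-/- AL and 14.4 to 143 in CR. Tnnt3, troponin T of fast muscle, was at 1.45, 6.75, 2.11 and 2.18 CPM in BMAd-Pnpla2+/+ AL, 2.51, 2.69, 2.80 and 2.74 in CR, 2.01, 3.05 and 1.43 in BMAd-Pnpla2-/- AL and 2.69, 7.52 and 14.95 in CR. The high values came from 1 fed control sample and 2 restricted samples without Pnpla2. The interaction of Tnnt3 was 2.16 (unadjusted p 0.0169) and 1.44 (0.0692) without BMAd-Pnpla2-/- CR replicate 3. Acta1, skeletal actin, reached 41.1 CPM in that sample. Without BMAd-Pnpla2+/+ AL replicate 2 the median of the list was 1.05. Myoz1 and Tcap, at 4.28 and 3.84, rested on means of 8.57 and 11.4 counts. BMAd-Pnpla2-/- CR replicate 3 also carried the high value of Marco, and the part of tissue other than marrow in it was not tested.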

How the data were processed

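RNA of 14 marrow samples had been sequenced as paired reads, aligned to mm10 with STAR and counted by the authors. The deposited files give raw counts per gene without strand and on each strand, and 1 matrix of counts. The submitters' processing notes also name FastQC (0.11.9) and DESeq2; versions of STAR and DESeq2 are not given in the sources used here. The matrix equals the reverse-strand counts in 11 samples and the unstranded counts in 3, so unstranded counts of every sample were used. Samples were grouped by genotype and diet from their labels.

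Genes were filtered with filterByExpr, scaled by TMM and fitted in 1 model of 4 groups with the robust quasi-likelihood test of edgeR (4.0.16, R 4.3.3). All p-values are two-sided. Benjamini-Hochberg adjustment was over all genes tested, except in DESeq2, which left 10621 genes without an adjusted p. The interaction, its standard error and fold changes are log2 values. limma voom (3.58.1), DESeq2 (1.42.0) and the other alternatives are described in the closing section, and scripts were tested on simulated data. GC content and length are of the longest transcript in GENCODE M21, whose coordinates were used. Of 55401 identifiers, 55141 were found there. Read pairs counted on no gene, 21.1 to 25.6% per sample, were left out of library sizes.

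The 55 gene lists and the comparison were chosen with earlier results of these data known. Named were Pnpla2, the 10 highest and 10 lowest interactions at an unadjusted p under 0.05 and a mean of at least 50 counts, the 5 smallest p in each direction, up to 3 members of each list by p, and further list members as examples. Lists are described by counts and medians, with no test.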

Additional observations from a re-analysis of the deposited data

Results flagged for a closer look

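Groups of 4 samples were checked for a single sample far from the other 3, and 6 of 52 checks found one. Chance gives about 1 in 20. The BMAd-Pnpla2-/- groups, with 3 samples, could not be checked. Madcam1 was at 0.978 CPM in BMAd-Pnpla2+/+ AL replicate 3, against 0.145 to 0.264 in the others. Bche was at 4.06 CPM in BMAd-Pnpla2+/+ AL replicate 1, against 1.56 to 1.85. Both muscle genes checked stood out in BMAd-Pnpla2+/+ AL replicate 2, with Tnnt3 at 6.75 CPM against 1.45 to 2.18 and Acta1 at 4.96 CPM against 0.19 to 0.435. Acta1 was also high in BMAd-Pnpla2+/+ CR replicate 4, at 3.22 CPM against 0.684 to 0.805. The share of haemoglobin genes was 1.49% in replicate 1 of BMAd-Pnpla2+/+ AL, below the remaining fed controls at 2.497 to 2.64%.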

How the results depend on the processing

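The number of genes with an interaction at an adjusted p under 0.05 was 0 with edgeR under size factors of the relative log expression method, library totals, no low-count filter (24248 genes), genes at least 95% on the second strand (14258 genes), the GC and length offset, non-robust estimation and each sample left out (0 to 0), and with limma voom. DESeq2 gave 58, with 10621 genes left without an adjusted p. The deposited matrix gave 678 and reverse-strand counts 1377. Both set strand-specific counts of 11 libraries against 3 libraries of the other type. At an unadjusted p under 0.05 the number was 1836, 2912 with the matrix, 3444 with reverse-strand counts, 1182 with the GC and length offset and 1188 with the offset and the replicate block, and 1143 to 2916 when samples were left out. With the offset, samples left out gave 792 to 2075, and the largest was without BMAd-Pnpla2+/+ CR replicate 4. Genes changed by CR in BMAd-Pnpla2+/+ marrow numbered 1062 to 2274 when samples were left out. In BMAd-Pnpla2-/- marrow they numbered 122 to 766, and 1655 with the matrix. Of 55 list medians, 12 were above 0, and 10 to 17 when samples were left out. The signs of 31 lists held under every alternative, 24 changed in some, and 9 changed with the GC offset. Those that changed lay within 0.1 of 0 or were the lists of the mitochondrial genome, mature neutrophils, megakaryocytes, osteoclasts, complement, histones, imprinted genes, chondrocytes, nerve and brown adipocytes. Directions reversed with the matrix for A730089K16Rik (-1.53), Ppib (-1.09), mt-Nd6 (7.51) and Mt2 (-3.85), and with reverse-strand counts for mt-Nd6 (7.33) and Cd247 (1.001). The cause was not tested. The offset with the replicate block, and samples left out with the offset, were added after seeing the data.

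Samples with the same replicate number did not deviate together: 7 of 19 pairs had a correlation over 0.1, with a median of 0.0155, and 5 of 14 samples correlated best with their own number. The replicate block gave 0 genes after adjustment and 1670 before it. Groups of 3 and 4 pools gave a median standard error of 0.29 for the interaction, against 0.19 and 0.22 for the single responses, and genes with few reads had wider ones.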
